A study of Mastomys natalensis with 3 samples.

Results

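The EGF family ligands Tgfa, Areg, Egf, Hbegf and Nrg1 and the ErbB receptors Egfr, Erbb2 and Erbb3 were followed in gastric cells of Mastomys natalensis, an African rodent that is prone to carcinoids of the stomach. Their probe sets were found by gene symbol in the platform annotation. The symbols, and not intensities, decide which probe sets belong, while the choice of the family was made with earlier results of these data known. The 8 genes, of 4736 with a singly named probe set, had 17 probe sets of 8740 that are not controls, 13 for the 5 ligands and 4 for the 3 receptors. RNA was hybridised to rat arrays, 1 array per group, per the labels. The first group had received loxtidine for 8 weeks and the second for 16 weeks. Loxtidine blocks the histamine receptor through which acid secretion is driven. The third group consisted of animals in which a carcinoid of enterochromaffin-like (ECL) cells had arisen spontaneously, and the labels name no drug for it. All 3 samples are described as enriched for ECL cells, the endocrine cells that store histamine next to the acid-producing parietal cells, while the source field says ECL cells for the first and gastric mucosa for the others. None of the 3 samples is labelled as untreated. Strain, age and the number of animals pooled per sample are not given in the sources used here.

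EGF family ligands are made as membrane-bound precursors and are released by metalloproteases such as Adam17. Tgfa, Egf, Areg and Hbegf bind Egfr, whereas Nrg1 binds Erbb3 and Erbb4. Erbb2 has no known ligand of its own and acts as the partner of the other receptors, and Erbb3 has little kinase activity but recruits PI3-kinase. In the stomach, Tgfa is known to restrain acid secretion and to favour growth of the surface mucous cells.

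With 1 array per group no difference below has a replicate or a p-value, and every value describes these arrays. Intensities were quantile normalized, and a floor was set at their pooled median, 12.4. A fold is given where both arrays reached the floor, a bound ("at least") where 1 did, and no fold where neither did. Rat probes can bind Mastomys RNA unequally, so folds were taken only within a probe set. The only measurable error was how far the log2 differences of probe sets for 1 gene spread, which was 0.80 for 16 against 8 weeks, 0.82 for carcinoid against 8 weeks and 0.62 for carcinoid against 16 weeks (410, 395 and 457 genes). It holds no variation between animals. As a blank, 38 control probe sets taken by name to have no target in this RNA were read in the same way. Their probes differ from those of the family, so they give only a rough guide to the range of background. Their deposited intensities reached 34.6 at 8 weeks, 31.3 at 16 weeks and 55.3 in the carcinoid. On the 8-week array the 3' GAPDH control was 8.95 times as bright as the 5' control, against 1.43 and 2.31 times on the 16-week and carcinoid arrays, while the same ratio for beta-actin was 16.1, 6.71 and 11.7 in the order 8 weeks, 16 weeks and carcinoid. The ratios differed in all 3 comparisons, and their part in the results was not tested. The lot named in the labels differs for every sample and cannot be told apart from the group.

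By its median the family was dimmer than all non-control probe sets on each of the 3 arrays. Its median deposited intensity was 6.8 at 8 weeks, 11.2 at 16 weeks and 5.6 in the carcinoid, beside 10.2, 13.1 and 13.9. Of the 17 probe sets, 4 reached the floor on every array, 6 on some arrays only and 7 on none. The floor is the pooled median, so about 50% of the readings of all probe sets reach it. The highest deposited intensity of any of the 17 was 42.5 at 8 weeks (Erbb3), 46.9 at 16 weeks (Erbb2) and 49.1 in the carcinoid (Erbb3). Among all non-control probe sets of the same array these stood at percentiles 88.5, 83.9 and 83.7. Only 1 probe set at 8 weeks (Erbb3) and 3 at 16 weeks (Erbb2, Nrg1 and Tgfa) were brighter than the brightest of the 38 blanks on the same array, and 0 were in the carcinoid. The share of all probe sets above the brightest blank is not given here. At or above the floor stood 7, 8 and 5 probe sets in the order 8 weeks, 16 weeks and carcinoid, and 8, 9 and 9 of the 38 blanks. Most readings of the family thus lay within the range of the blanks.

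**Figure D1:**
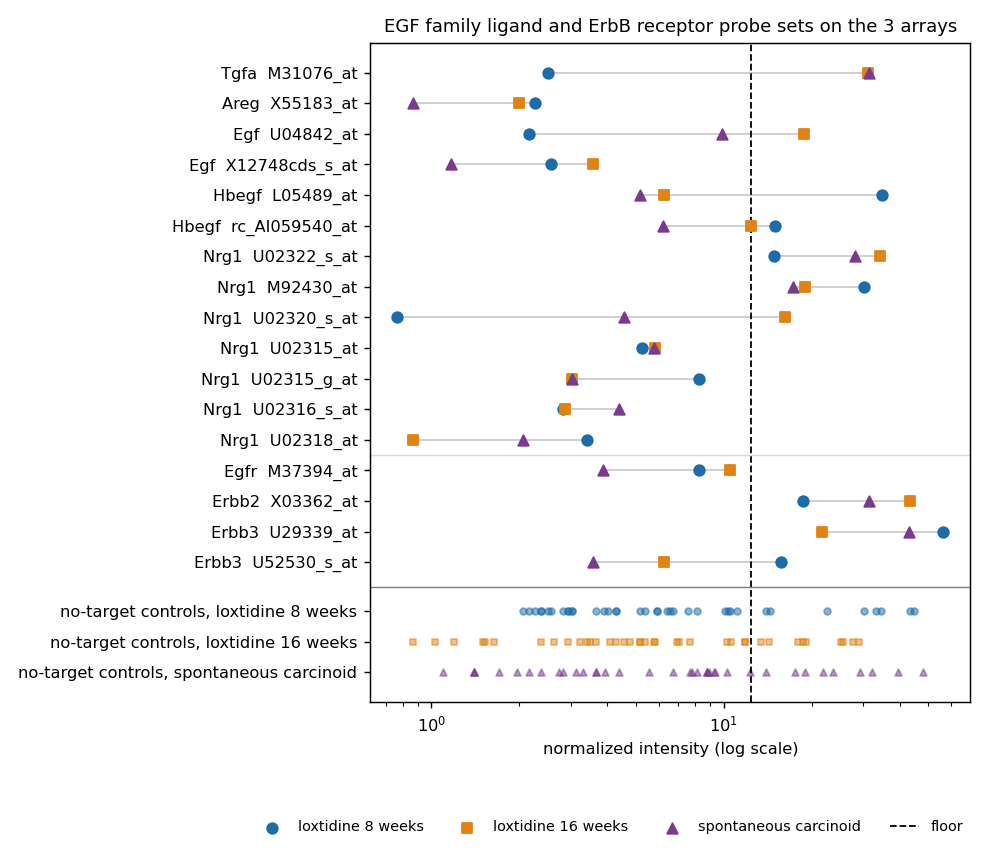
Normalized intensity (log scale) of the 17 probe sets of the EGF family ligands and ErbB receptors on each of the 3 arrays, 1 point per array, with the 38 no-target controls of each array in the lowest rows and the floor of 12.4 as a dashed line. Only 4 probe sets lie at or above the floor on all 3 arrays, and most points lie within the range of the no-target controls.

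Tgfa, which encodes transforming growth factor alpha, was read under the floor at 8 weeks and above it at 16 weeks and in the carcinoid. Its single probe set (M31076_at) had a deposited intensity of 2.1 at 8 weeks, 33.7 at 16 weeks and 35.4 in the carcinoid, and a normalized intensity of 2.5, 31.2 and 31.5. The low reading is that of the 8-week array, and the other 2 arrays were nearly equal. It was at least 2.52-fold higher at 16 weeks than at 8 weeks and at least 2.54-fold higher in the carcinoid than at 8 weeks. Those bounds equal 1.67 and 1.64 times the spread between probe sets. Between carcinoid and 16 weeks it differed by 1.01-fold, a log2 difference of 0.01 that was -0.01 with the arrays scaled to a common median. With the floor raised to 30.0, the 75th percentile, the log2 bounds against 8 weeks shrank to 0.06 and 0.07, and with the floor lowered to 4.2 they grew to 2.89 and 2.91. The size of the Tgfa difference thus rests on where background is taken to end, and the brightest blank had a normalized intensity of 29.0 on the 16-week array, under the Tgfa reading there, and of 48.0 on the carcinoid array, above it.

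The Muc5ac gene, which encodes the mucin of surface mucous cells, was likewise lowest at 8 weeks, at a normalized intensity of 15.8 against 168 and 212. Muc1 was also lowest there (98.6, 119 and 110), whereas Tff1 (1126, 836 and 1147), Tff2 (44.8, 19.3 and 65.7) and Gkn1 (28.7, 26.2 and 28.7), genes of the same list, were lowest at 16 weeks. All 5 genes of the mucous cell list that had a probe set reached the floor on every array, and their summed intensity was 1314, 1169 and 1563. Most of that sum came from Tff1. Epithelial keratin and junction genes summed to 183, 379 and 504, with 4, 6 and 6 of 7 at or above the floor. The part of these cells in the Tgfa reading was not tested, and in bulk RNA fewer cells of a type and less RNA per cell cannot be told apart.

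Hbegf, the heparin-binding ligand of Egfr, read highest on the 8-week array. Its probe set L05489_at had a normalized intensity of 34.8 at 8 weeks, 6.23 at 16 weeks and 5.17 in the carcinoid. Only the 8-week reading reached the floor, which made Hbegf at least 2.8-fold lower on each of the other arrays (1.87 and 1.82 times the spread). The second probe set, rc_AI059540_at, read 14.9, 12.4 and 6.2, so that against 8 weeks it was 1.2-fold lower at 16 weeks, with a bound of at least 1.2-fold lower for the carcinoid. As deposited its 16-week reading (13.1) was instead above the 8-week reading (12.2), and the log2 difference was 0.10. The large difference therefore came from 1 of 2 probe sets, and the blanks of the 8-week array reached a normalized intensity of 44.8.

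Egf, the founding ligand of the family, was near or under the floor throughout. Probe set U04842_at read 2.17 at 8 weeks, 18.8 at 16 weeks and 9.87 in the carcinoid, which gave bounds of at least 1.52-fold for 16 weeks over each of the other arrays. The other Egf probe set, X12748cds_s_at, read 2.57, 3.57 and 1.17 and had no fold in any comparison. Areg, which encodes amphiregulin, read 2.27, 2.0 and 0.87 and likewise stayed under the floor on all 3 arrays. No statement on a change of Areg can be made at this signal, and a dim reading does not show that the transcript was absent.

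Nrg1, the neuregulin gene, was represented by 7 probe sets made from different rat sequences, of which U02315_at and U02315_g_at come from the same one. The 2 that reached the floor on every array went opposite ways. U02322_s_at read 14.8 at 8 weeks, 34.2 at 16 weeks and 28.2 in the carcinoid, so that it was 2.31-fold and 1.91-fold higher than at 8 weeks. M92430_at read 30.1, 19.0 and 17.2, and was 1.59-fold and 1.74-fold lower. Their log2 differences lay 1.87 apart for 16 against 8 weeks and 1.73 apart for carcinoid against 8 weeks. The root mean square of that gap over genes with 2 measured probe sets was 1.12 and 1.16 in these comparisons. For carcinoid against 16 weeks the 2 Nrg1 probe sets lay 0.14 apart.

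The remaining Nrg1 probe sets were dimmer. U02320_s_at read 0.77 at 8 weeks, 16.2 at 16 weeks and 4.57 in the carcinoid, which gave a bound of at least 1.31-fold for 16 weeks over each other array. The other 4 Nrg1 probe sets lay under the floor on all 3 arrays, between 0.87 and 8.23. No direction for Nrg1 as a gene follows from these probe sets, and which of its transcript forms each one detects in Mastomys was not tested.

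Among the receptors, Egfr was not measurable above the floor. Its only probe set, M37394_at, read 8.23 at 8 weeks, 10.5 at 16 weeks and 3.87 in the carcinoid. All 3 readings lay under 12.4, so that the receptor of Tgfa, Egf, Areg and Hbegf has no fold in these data.

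Erbb2, the receptor without a ligand of its own, was at or above the floor on every array. Its probe set X03362_at had a normalized intensity of 18.7 at 8 weeks, 43.4 at 16 weeks and 31.3 in the carcinoid, and a deposited intensity of 15.4, 46.9 and 35.1. It was 2.32-fold higher at 16 weeks than at 8 weeks (log2 1.22, or 1.53 times the spread). It was 1.68-fold higher in the carcinoid than at 8 weeks (log2 0.75) and 1.39-fold lower in the carcinoid than at 16 weeks (log2 -0.47), both less than the spread. As deposited the differences from 8 weeks were larger, at log2 1.61 and 1.19, in a table in which all measured probe sets were shifted upward by a median of 0.39 and 0.45. The order of the arrays was 16 weeks, carcinoid, 8 weeks, in which neighbours differed by less than the spread after normalization.

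Erbb3, the receptor of Nrg1, was at or above the floor on every array with 1 of its 2 probe sets. Probe set U29339_at read 56.3 at 8 weeks, 21.7 at 16 weeks and 42.8 in the carcinoid. It was 2.6-fold lower at 16 weeks than at 8 weeks (log2 -1.38, or 1.73 times the spread) and 1.98-fold higher in the carcinoid than at 16 weeks (log2 0.98, or 1.58 times the spread). The carcinoid was 1.31-fold lower than 8 weeks after normalization (log2 -0.39), but higher as deposited (49.1 against 42.5, log2 0.21), and either value was less than the spread. The array at 16 weeks was the lowest under each of the 3 scalings. The second probe set, U52530_s_at, read 15.7, 6.23 and 3.57, and was at least 1.27-fold lower at 16 weeks and in the carcinoid than at 8 weeks. For carcinoid against 16 weeks the second probe set was under the floor on both arrays, so the 2 cannot be compared there. Against 8 weeks each was lower in the carcinoid after normalization.

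Erbb3 is known as a receptor of Schwann cells. Of 8 genes on a Schwann cell and glia list, 5 had a probe set, and 3, 2 and 4 of them reached the floor in the order 8 weeks, 16 weeks and carcinoid. Their summed intensity was 533, 307 and 223, most of it from Ngfr. Sox10, a defining factor of that lineage, read 22.9 at 8 weeks and 1.2 and 1.1 on the others, and Pmp22, of myelin, read 71.9, 33.7 and 17.1. The myelin gene Mbp ran the other way (2.17, 8.23 and 24.5), and S100b read 11.9, 6.3 and 12.5. The part of such cells in the Erbb3 readings was not tested. Markers of the labelled cell type were only partly read, and Chga was not among the named probe sets. Hdc, which makes histamine, was under the floor on every array (4.43, 4.77 and 3.2), while 6, 6 and 5 of the 11 ECL and neuroendocrine genes with a probe set reached it, and the list summed to 253, 236 and 151. The amine transporter Slc18a2 was highest at 16 weeks (21.8, 42.3 and 23.2), whereas the gastrin receptor Cckbr (74.1, 56.6 and 35.3), Syp (57.1, 33.6 and 26.7) and Chgb (37.6, 35.4 and 17.7), both of secretory vesicles, were highest at 8 weeks. Pcsk2 was also highest at 8 weeks (33.0, 9.58 and 8.9). Of the same list, Cpe was lowest at 8 weeks (13.1, 22.8 and 22.5), and Scg2 reached the floor at 16 weeks only (5.07, 20.1 and 3.57). Genes of other gastric cells were also read, such as pepsinogen C, Pgc, of chief cells (5625, 4449 and 3666) and the proton pump subunits Atp4a (932, 1449 and 906) and Atp4b (243, 143 and 116) of parietal cells. On the chief cell list Lipf was highest in the carcinoid (3.13, 4.4 and 21.3), and Cblif (455, 504 and 384) and Bhlha15 (17.5, 35.1 and 4.77) at 16 weeks. On the parietal list Car2 (149, 212 and 283) and Kcnj15 (9.17, 8.4 and 40.3) were highest in the carcinoid. Ckb, Slc4a2 and Aqp4 were highest at 8 weeks, and Kcnq1 was under the floor on every array. The chief cell list summed to 6100, 4993 and 4077 and the parietal list to 2688, 2322 and 1950. As rat probes can bind Mastomys RNA unequally, each sum over a list of markers is weighted toward its brightest probe sets, such as Pgc in the chief cell list. The sums are therefore no measure of cell number.

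**Figure D2:**
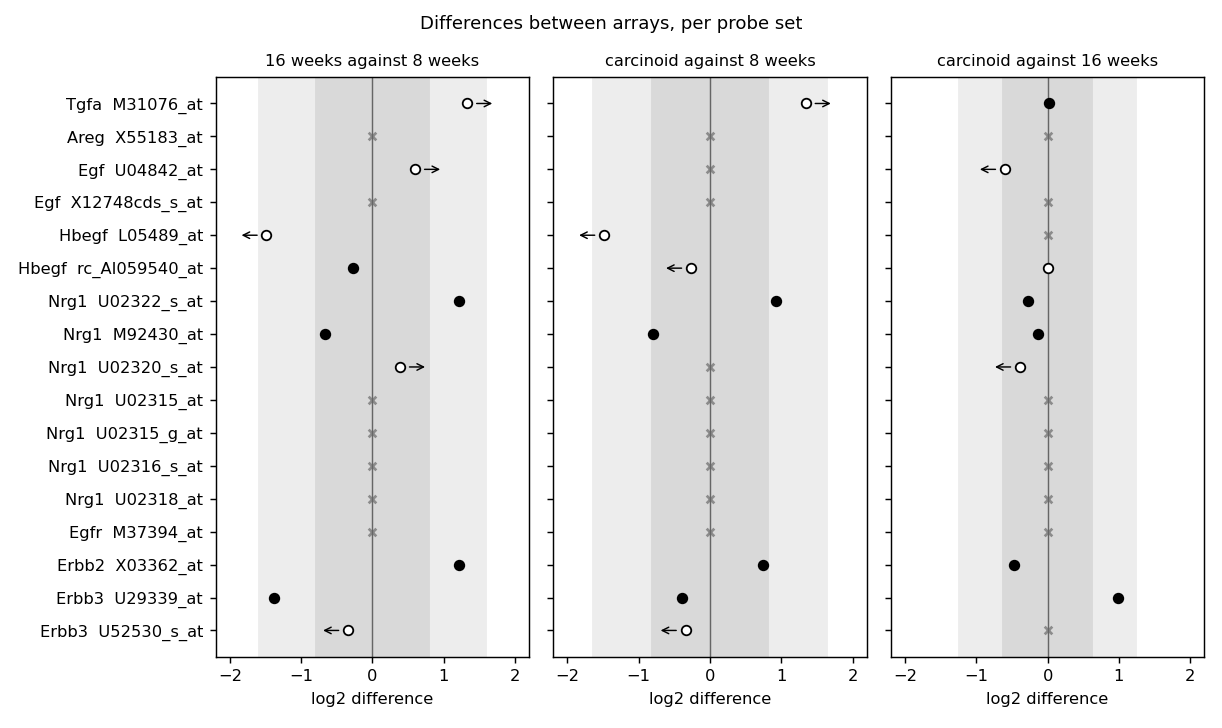
Log2 difference between arrays for each of the 17 probe sets in the 3 comparisons. Filled points were measured on both arrays, open points are bounds with an arrow pointing away from 0 (no arrow where the bound is 0), crosses mark probe sets under the floor on both arrays and have no value, and the grey bands span 1 and 2 times the spread between probe sets of a gene. As drawn, 0 of the points lie outside the wider band. A bound is drawn at the least size of its difference, which may lie outside the band.

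For 16 weeks against 8 weeks, Tgfa and Erbb2 had higher readings, Hbegf and Erbb3 lower ones, and the Nrg1 probe sets were divided. Of the 10 probe sets with a fold or bound, 3 were at least 2-fold higher at 16 weeks (Tgfa, Erbb2 and Nrg1 U02322_s_at, but not Nrg1 M92430_at) and 2 at least 2-fold lower (Hbegf L05489_at and Erbb3 U29339_at). The other 7 lay under the floor on both arrays. Of all 5586 non-control probe sets with a fold or bound, 26.8% were at least 2-fold apart, 13.8% higher and 13% lower, and so were 5 of 14 blanks. A fold or bound of 4 was reached by 0 of the 10, and by 3.11% of all probe sets. Of the 5 read at or above the floor on both arrays, 3 were at least 2-fold apart, against 20.7% of all such probe sets, and with the floor at 30.0 the count was 0 of 6, against 13.2%. As deposited, 4 of 10 with a value were at least 2-fold apart, against 28.2%.

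For carcinoid against 8 weeks, 8 probe sets had a value, of which 1 was at least 2-fold higher (Tgfa) and 1 at least 2-fold lower (Hbegf L05489_at). Over all 5620 probe sets with a value the share was 28.6% (14.6% higher and 14% lower), so that the family's 2 of 8 lay near the background. Among the blanks it was 4 of 13. Both calls were bounds, since the count was 0 among the 4 probe sets with a fold, against 23.1% of all such probe sets. At 4-fold the family had 0 of 8, against 3.47% of all probe sets. As deposited, 4 of 8 were at least 2-fold apart, 3 higher and 1 lower, against 31.9% of all probe sets.

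For carcinoid against 16 weeks, 0 of the 8 probe sets with a value were at least 2-fold apart, against 19.1% of all 5439 (9.38% higher and 9.69% lower) and 2 of 15 blanks. At 4-fold, which 0 of the 8 reached, the share of all probe sets was 0.938%. The 8-week array enters this comparison only through the shared normalization and floor. When these 2 arrays were normalized without it, Erbb3 U29339_at passed 2-fold and the count was 1 of 8 (19.5% of all probe sets), as it was as deposited (21.8%) and with scaling to a common median (19.4%). Across the 3 comparisons, the differences or bounds of 5 of 10, 3 of 8 and 1 of 8 probe sets exceeded the spread. The share of all probe sets past the spread is not given here, so these counts have no background beside them. With bounds taken at their least size, 0 of the family probe sets exceeded 2 times the spread, the largest being 1.87 times. That last count depended on the processing, with Tgfa and Hbegf L05489_at over 2 times the spread in both comparisons with 8 weeks when the floor was 4.2 (up to 2.65 times), and Erbb2, Nrg1 U02322_s_at and Tgfa over it at 16 against 8 weeks as deposited (up to 2.21 times). Without a filter on low values, Tgfa was over it in both comparisons with 8 weeks and Hbegf in that of the carcinoid (up to 2.24 times). The comparisons share arrays, so their counts are not independent of one another.

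**Figure D3:**
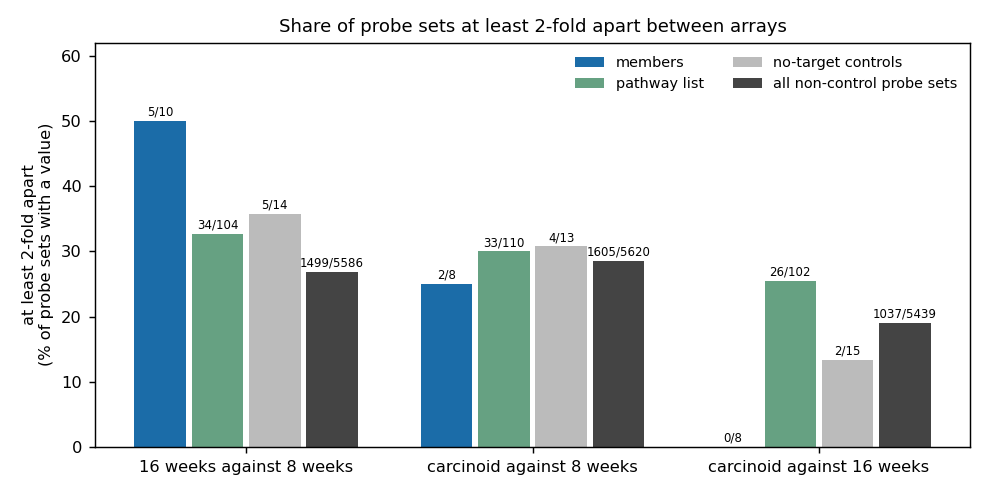
Share of probe sets at least 2-fold apart (in %, of those with a fold or bound) in the 3 comparisons for the 17 family probe sets ("members"), the 150 probe sets of the pathway list, the 38 no-target controls and all non-control probe sets, with the counts above each bar. The family shares of 5 of 10, 2 of 8 and 0 of 8 stand beside shares of 26.8%, 28.6% and 19.1% for all probe sets.

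Around the family, a list of 142 genes for other ligands, ligand release, signal transduction, receptor attenuation and target genes was read, of which 84 had 150 probe sets. At 16 weeks against 8 weeks, 15 of the 104 with a value were at least 2-fold higher and 19 at least 2-fold lower (22 and 7 as deposited, 17 and 14 with scaling to a common median). The corresponding counts were 13 and 20 of 110 for carcinoid against 8 weeks (26 and 10 as deposited) and 11 and 15 of 102 for carcinoid against 16 weeks (17 and 15 as deposited). Medians of the log2 difference were -0.30, -0.09 and 0.16, beside 0.00, -0.03 and 0.01 over all probe sets, and 0.08, 0.35 and 0.21 as deposited, beside 0.35, 0.42 and 0.09. The share at least 2-fold apart was 32.7%, 30.0% and 25.5%, beside 26.8%, 28.6% and 19.1% of all probe sets.

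The other members of the ligand and receptor families added little. Nrg2, a second neuregulin gene, read 4.93 at 8 weeks, 24.1 at 16 weeks and 25.1 in the carcinoid, with bounds over 8 weeks of at least 1.94-fold and at least 2.02-fold. Its readings, like those of Tgfa, were below the floor at 8 weeks only. Both Erbb4 probe sets stayed under the floor on all 3 arrays, at 7.7 or less.

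Each probe set for genes of ligand release was lowest at 8 weeks. The 5 probe sets of this class had a median log2 difference of 1.11 at 16 weeks against 8 weeks, with 3 at least 2-fold higher and 0 lower (3 and 0 as deposited). The 4 with a value in the carcinoid against 8 weeks had a median of 1.13, with 2 higher and 0 lower (4 and 0 as deposited). Of all probe sets 13.8% and 14.6% were at least 2-fold higher in these comparisons. After normalization each of the class's calls against 8 weeks was a bound set by the floor, so the medians rest partly on bounds. The 2 probe sets measured on both arrays in each comparison, for Adam17 and Cd9, were less than 2-fold higher. Adam17, the main protease that releases Tgfa, read 16.8, 24.0 and 28.5, so that it was 1.43-fold and 1.7-fold higher than at 8 weeks, less than the spread. Adam10, a related protease, read 1.63, 26.8 and 4.43 and reached the floor at 16 weeks only. Nrdc, a metalloendopeptidase known to assist release of Hbegf, read 1.8, 29.2 and 49.7, with bounds over 8 weeks of at least 2.35-fold and at least 4.01-fold. The tetraspanin Cd9, a partner of the Hbegf precursor, read 20.6, 24.3 and 36.6 on 1 probe set and 9.05, 70.4 and 33.6 on the other. At carcinoid against 16 weeks the class had 0 higher and 2 lower of 5, beside 9.38% and 9.69% of all probe sets.

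Among adaptors and proximal transducers, 1 of 16 probe sets was at least 2-fold higher and 3 lower at 16 weeks against 8 weeks (1 and 0 as deposited). Over all probe sets the shares were 13.8% higher and 13% lower. Grb2, the adaptor that links the receptors to Ras, had 3 probe sets at or above the floor on all arrays, of which the brightest read 107, 87.9 and 113. The kinase Src was 2.28-fold lower at 16 weeks than at 8 weeks and 2.23-fold higher in the carcinoid than at 16 weeks (38.0, 16.7 and 37.1). The phospholipase Plcg1 was 1.77-fold lower and the exchange factor Sos1 1.76-fold lower at 16 weeks. The adaptor Shc3 was 1.75-fold lower in the carcinoid than at 8 weeks and 2.38-fold lower than at 16 weeks.

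In the step from Ras to ERK, Nras was 4.31-fold higher at 16 weeks than at 8 weeks on 1 probe set (13.1, 56.6 and 23.7), while its other probe set was under the floor on every array. Probe sets of the kinase Map2k2 disagreed. L14936_at was 2.07-fold higher at 16 weeks and 3.76-fold higher in the carcinoid than at 8 weeks, whereas the brighter rc_AA963674_g_at was 2.26-fold and 2.19-fold lower. The remaining one, rc_AA957896_s_at, was 1.99-fold higher at 16 weeks but at least 1.76-fold lower in the carcinoid than at 8 weeks. The kinase Araf was 2.26-fold higher in the carcinoid than at 8 weeks (21.9, 30.2 and 49.5).

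Of the PI3-kinase, Akt and STAT genes, Stat5b, a transcription factor, was 1.94-fold higher at 16 weeks than at 8 weeks and 2.98-fold lower in the carcinoid than at 16 weeks (37.5, 72.6 and 24.4). Pik3r1, the regulatory subunit that Erbb3 recruits, was 2.29-fold higher in the carcinoid than at 16 weeks (51.6, 33.3 and 76.2), and its second probe set was under the floor on every array. The kinase Akt1 was 1.61-fold higher at 16 weeks than at 8 weeks on its brighter probe set.

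Genes of receptor attenuation and traffic went both ways in each comparison. Hgs, which sorts ubiquitinated receptors to the lysosome, was 4.83-fold higher in the carcinoid than at 8 weeks and 4.43-fold higher than at 16 weeks (16.2, 17.7 and 78.3). The clathrin heavy chain Cltc was 2.13-fold and 3.61-fold higher than at 8 weeks (20.3, 43.1 and 73.1). The clathrin adaptor subunit Ap2m1 read 146, 15.2 and 42.3, and the signalling inhibitor Socs3 read 16.0, 71.2 and 14.9. As a class, 4 of 26 probe sets were at least 2-fold higher and 4 lower at 16 weeks (4 and 1 as deposited), and 3 and 3 of 29 in the carcinoid against 8 weeks (7 and 1 as deposited). Over all probe sets the shares were 13.8% higher and 13% lower at 16 weeks, and 14.6% and 14% in the carcinoid.

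More probe sets of the pathway's target genes were lower than higher at 16 weeks and in the carcinoid, each against 8 weeks. At 16 weeks 2 of 33 probe sets were at least 2-fold higher and 10 lower (4 and 6 as deposited). Over all probe sets the shares were 13.8% higher and 13% lower. The median log2 difference of the target genes was -0.81, and -0.42 as deposited. In the carcinoid 1 of 36 was higher and 12 lower (4 and 7 as deposited), beside 14.6% and 14% of all probe sets. The median of the target genes there was -0.58, and -0.10 as deposited. Jun and Egr1 each entered these lower counts with more than 1 probe set. Egr1 U75398_s_at ran the other way, with readings of 3.77 at 8 weeks, 19.4 at 16 weeks and 37.9 in the carcinoid. Its 8-week reading lay under the floor, so both of its differences from 8 weeks are bounds. The bound for the carcinoid (3.06) made it the 1 probe set counted as higher there. The transcription factor Jun read 515, 14.1 and 13.3 on X17163cds_s_at. The other Jun probe sets were 10.9-fold lower at 16 weeks than at 8 weeks, at least 1.67-fold lower, and under the floor. The 5 probe sets of the cyclin Ccnd1 disagreed for the carcinoid against 16 weeks, from 2.66-fold lower on D14014_g_at, over 1.32-fold and 1.16-fold lower, to at least 1.12-fold and 1.38-fold higher. Vegfa, an angiogenic factor, was 2.1-fold lower in that comparison on M32167_g_at, at least 2.97-fold and 1.44-fold lower on 2 others, and under the floor on the last. Many stimuli other than EGF family ligands act on these genes, so they do not report on the receptors alone.

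The probe set with the highest mean among those of the family above the floor on all arrays was Erbb3 U29339_at. Of 2160 singly named probe sets of other genes at or above the floor on all 3 arrays, the closest in pattern were the chaperonin subunit Cct3 (48.1, 17.8 and 34.8), Nxph4 (43.7, 17.9 and 35.9) and the collagen gene Col5a1 (51.9, 19.0 and 36.3). Their distances from Erbb3, over log2 values centred per probe set, were 0.06, 0.08 and 0.09. A match over 3 arrays is a description of them and no more.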

How the data were processed

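RNA of 3 samples was measured on Affymetrix rat arrays, per the labels. The deposited values are linear intensities, 1 for each probe set on each array, and how the authors made and scaled them is not given in the sources used here. Gene symbols came from the platform annotation. Of 8740 non-control probe sets, 7006 had 1 symbol, 308 several and 1426 none, and only those with 1 were named. Arrays were quantile normalized over non-control probe sets and the controls read off the same curves (Python 3.11.15, numpy 2.4.6, pandas 2.3.3). Values under the floor, the pooled median, were raised to it before log2. No test was possible with 1 array per group, and the number of arrays limits the precision. The spread is the root mean square of the gap between the log2 differences of the 2 brightest measured probe sets of a gene, divided by the square root of 2. All probe sets of the 8 genes were named, and up to 3 per pathway class and comparison with the largest measured difference, of which some are not printed. Members and lists were chosen with earlier results of these data known. These steps were checked on simulated arrays into which known differences had been placed. Recovery was checked only for differences measured on both arrays, not for bounds, and the simulated noise was smaller than the spreads found here. No sequence is shown.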

Additional observations from a re-analysis of the deposited data

How the results depend on the processing

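Settings were changed one at a time. Counts of family probe sets at least 2-fold apart were 5, 2 and 0 for 16 against 8 weeks, for carcinoid against 8 weeks and for carcinoid against 16 weeks, in that order. They became 8 of 13, 5 of 14 and 3 of 13 with a value when the floor was the 25th percentile (4.2), beside 42.5%, 43.7% and 36.1% of all probe sets. With the floor at the 75th (30.0) they were 0 of 6, 0 of 5 and 0 of 4, beside 13.2%, 15.3% and 5.86%. As deposited they were 4, 4 and 1, and with scaling to a common median 5, 2 and 1. Counting only probe sets measured on both arrays, a choice made after seeing the data, gave 3, 0 and 0, and leaving the 8-week array out of the normalization, also chosen later, gave 1 for carcinoid against 16 weeks. The pathway counts of 34, 33 and 26 became 56, 58 and 43 with the lower floor, 13, 12 and 8 with the higher, 19, 18 and 13 with probe sets measured on both arrays, and 23, 21 and 17 with 1 probe set per gene. With the lower floor the pathway shares were 40.6%, 41.7% and 31.4%, each under the share of all probe sets (42.5%, 43.7% and 36.1%). With the higher floor they were 21.0%, 19.7% and 12.7%, each above it (13.2%, 15.3% and 5.86%). Measured on both arrays, they were 27.9%, 26.5% and 19.1%, beside 20.7%, 23.1% and 13.3%. The spread for carcinoid against 16 weeks was 0.93 with the lower floor. A different floor changes which probe sets have a value, and the cause of the other changes was not tested. Of 141 values of single family probe sets under the alternatives, 16 moved by more than the spread, 11 with the lower floor and 5 with the higher, and 0 differences of at least 2-fold changed direction. As deposited, 1193 probe sets were at least 2-fold higher and 348 lower at 16 against 8 weeks, against 773 and 726 after normalization. For carcinoid against 8 weeks these were 1443 and 337, against 820 and 785. Signal close to that of the blanks limits every value of the family. No paired analysis was possible because each group has 1 array.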
